A study of Mus musculus with 4 samples.

Results

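The transcripts described here are those of 36 apoptosis genes: the BCL2 family, the caspases with their mitochondrial activators and their inhibitors, and the death receptor genes that feed into them. They were chosen by gene symbol, as the array's own annotation spells it, and comprise 12 pro-survival genes, 22 pro-death genes and 2 genes for which either role is known. A probe with the symbol was on the array for 34 of the 36, and 33 were measured, meaning that a probe passed the scanner's test for signal well above background on 2 or more of the 4 arrays. The whole array gave 16978 measured genes of 27630 with a probe. Bone marrow of male C57BL/6 mice was sorted for immature granulocytes, the precursors of neutrophils. The marrow came from miR-223 KO mice, which lack a microRNA abundant in myeloid cells (2 arrays), or from wild-type mice (WT, 2 arrays), and each RNA sample was read on its own array in a single colour. The question put to these genes is whether pro-survival and pro-death transcripts differ between the genotypes. The labels give neither the age of the mice, the construction of the deletion, the sorting gate nor how many mice made up a sample. They do not say that replicates were separate animals, so a p-value here sets a difference against the scatter of these samples, and that scatter may be technical.

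Apoptosis in its mitochondrial form is controlled by proteins of the BCL2 family. Guardians such as BCL2 and MCL1 hold the pore formers BAX and BAK1 in check, BH3-only proteins such as BIM release them, and cytochrome c leaving the mitochondria then assembles with APAF1 to activate caspase 9. IAP proteins restrain caspases, and death receptors such as FAS reach caspase 8 through the adaptor FADD. Neutrophils are short-lived cells that die by apoptosis unless survival signals hold them back. MCL1 is the guardian that mouse neutrophils are best known to depend on.

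The sequence of the missing regulator is shown with its seed, bases 2 to 8, in capitals, because the seed sets which letters a transcript must hold to pair with it. It is the RefSeq sequence at chrX:96242884-96242905 of GRCm38.p6, plus strand.
mmu-miR-223-3p: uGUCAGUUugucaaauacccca
The letters that pair with this seed were searched in the 60-base probes of the 33 genes, in the sense of the transcript only. The probes cover a small piece of each transcript, so the absence of a match says only that those letters are not in the probe. Of 62 member probes that passed the background filter, 0 held the 8-letter match AACTGACA (0.132% of all probes kept), 0 held AACTGAC (0.384%) and 0 held ACTGACA (0.478%). These words overlap, since the longest contains the others. The 6-letter core ACTGAC was in 1 of the 62 (1.47% of all probes kept), a probe of Xiap at chrX:39458363-39458422 of mm9, plus strand, of which 30 bases are shown with the core in capitals.
Xiap probe: ttttcacatgtatattggtagtacACTGAC
That probe read 0.280 and 0.307 on the KO arrays and 0.274 and 0.348 on the WT arrays, in units explained below, so the genotypes overlapped. A further probe is shown because its reading cannot be given to 1 gene. It carries the name Bcl2a1b, but its annotation also lists transcripts of Bcl2a1a and Bcl2a1d, near-identical copies of the A1 guardian gene that have no probe under their own names. It spans chr9:89094570-89102431 of mm9, plus strand.
Bcl2a1b probe: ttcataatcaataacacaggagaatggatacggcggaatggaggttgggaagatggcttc

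Levels below are relative signals, in which 1 is the 75th percentile of an array's processed signals, and each gene is read by its brightest probe. Probes differ in how brightly they report, so a gene's level is compared between arrays, and brightness across genes served only to choose which to describe. Differences are KO minus WT on the log2 scale with the SE of the limma fit over all genes (n = 2 arrays per genotype), and adjusted p-values are Benjamini-Hochberg values over all 16978 genes. The 75th percentile was 361 and 422 intensity units on the KO arrays and 314 and 310 on the WT arrays, 59.6% to 62.9% of spots were well above background, and 0 spots were saturated. The 4 arrays shared 1 slide and 1 scan. The array has 0 probes for Mir223, so the deleted gene cannot check the genotype labels. Of 14 granulocyte precursor markers 12 were measured, and Mpo, the myeloperoxidase of primary granules, read 1201 and 1008 on the KO arrays and 1015 and 1113 on the WT arrays. Mpo thus overlapped, but other precursor markers, Prtn3, Ctsg and Elane, were higher in KO, and the whole list is given with the other markers below. Cebpe and Ly6g were not analysed here.

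None of the 33 measured apoptosis genes passed an adjusted p under 0.05, and neither did any other gene (percent called 0; smallest adjusted p over all genes 0.0838). At an unadjusted p under 0.05 there were 9 of the 33 (27.3%), against 23.8% of all genes. Of the 9, 5 were higher in KO, namely Cycs, Bcl2l2, Bmf, Ripk3 and Diablo (11.8% of all genes were higher at that threshold), and 4 were lower, namely Bcl2, Bcl2l11, Fadd and Apaf1 (12% of all genes). The share of members is thus close to the background. Differences of any size were positive for 20 of the 33 (60.6%), against 47.6% of all genes. With an intensity trend in the variance prior limma called 6 of the 33 (18.2%) at an adjusted p under 0.05, against 9.58% of all genes. These were Cycs, Bmf, Ripk3 and Bcl2l2, higher in KO (5.45% of all genes), and Bcl2 and Bcl2l11, lower in KO (4.13%). The arrays of the genotypes did not overlap for 23 of the 33 (69.7%), against 58.6% of all genes, the KO arrays being above for 13 (28% of all genes) and below for 10 (30.5%). No member differed by 2-fold, and the median size of the difference was 0.24 log2 units, against 0.20 over all genes. For 24 of the 33 the 95% interval of the difference included 0. In bulk RNA a change in the share of a cell type and a change in RNA per cell cannot be told apart. Values of markers of other cells and of mitotic genes are given after the gene groups.

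**Figure D1:**
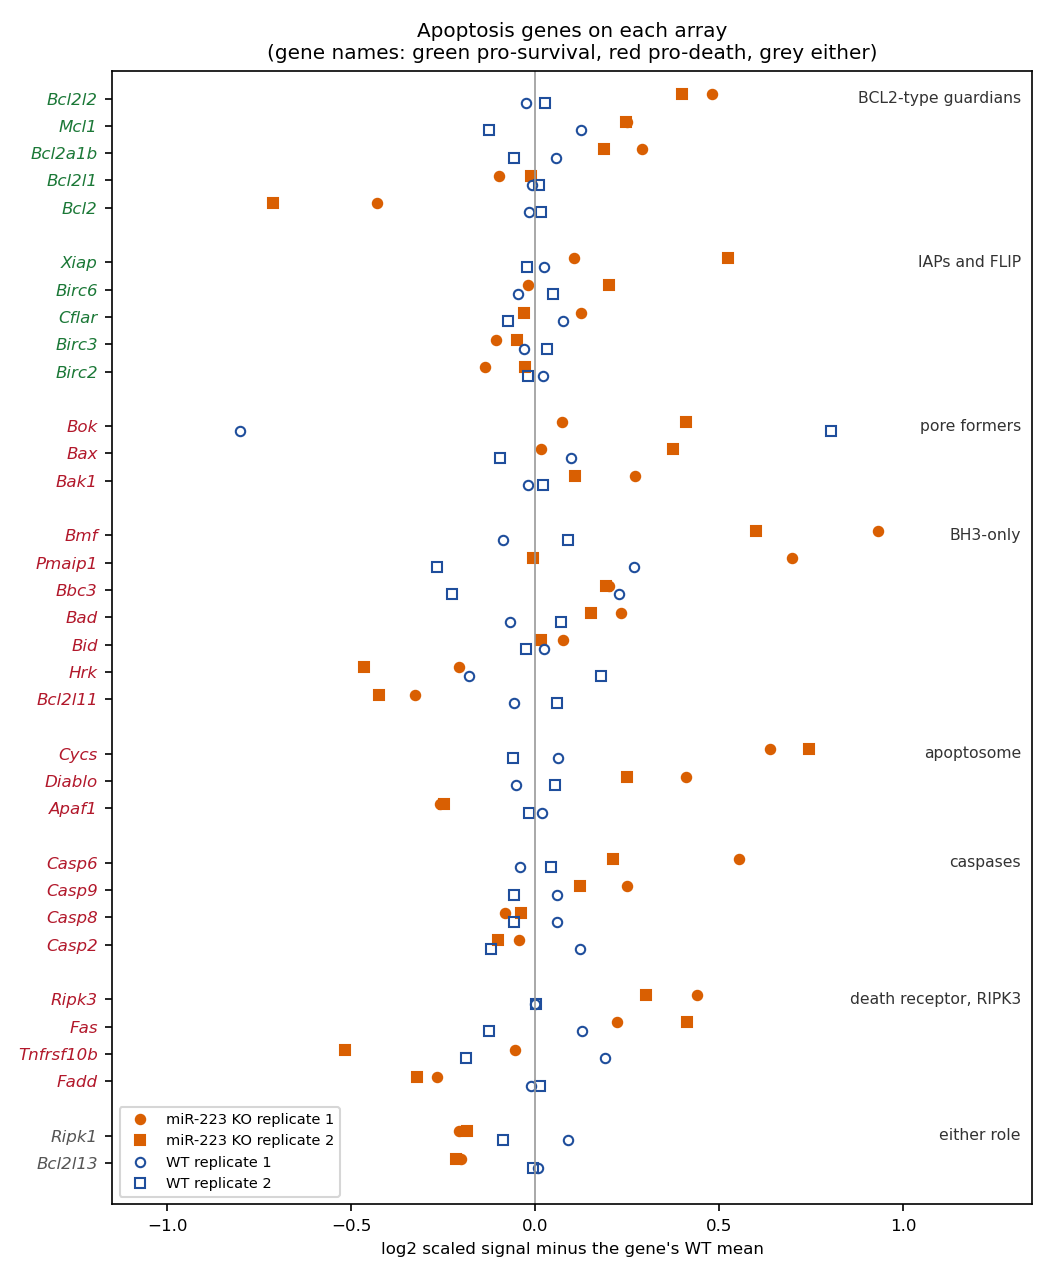
Relative signal of each measured apoptosis gene on each array, as log2 signal minus the gene's mean over the WT arrays (horizontal axis, log2 units), with genes in rows by role and 1 symbol per array. The KO arrays of Bcl2, Bcl2l11, Apaf1 and Fadd lie left of both WT arrays and those of Cycs, Bmf, Bcl2l2, Diablo and Ripk3 right of them, while the arrays of Bok, Bbc3, Pmaip1 and Cflar overlap.

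Among the BCL2-type guardians, which bind and block the death-promoting members of their own family, Bcl2l2 read higher and Bcl2 lower in KO. Bcl2l2, which encodes BCL-w, read 1.07 and 1.01 on the KO arrays, against 0.752 and 0.778 on the WT arrays. The groups did not overlap, and the difference was 0.44 ± 0.08 (1.36-fold; adjusted p = 0.11). Bcl2, the founding guardian gene, read 1.11 and 0.913 on the KO arrays, against 1.48 and 1.51 on the WT arrays. Both KO arrays were below both WT arrays, by -0.57 ± 0.13 (adjusted p = 0.124). A dimmer Bcl2 probe was also lower, at -0.65 ± 0.16, whereas a probe annotated to another transcript variant overlapped at 0.05 ± 0.12. Mcl1 encodes a short-lived guardian that myeloid cells rely on. It had 42.2 on each KO array, against 38.8 and 32.6 on the WT arrays, a difference of 0.25 ± 0.12 (adjusted p = 0.299). The groups did not overlap, but the WT arrays stood apart from each other, and the difference was 0.12 without WT replicate 2. The A1 probe shown above read 0.651 and 0.606 on the KO arrays, against 0.554 and 0.512 on the WT arrays. The KO arrays were both higher (0.24 ± 0.10; adjusted p = 0.24), and which of the A1 copies this reflects cannot be told apart. Bcl2l1, the gene of BCL-XL, a guardian of red cell precursors among other cells, differed by -0.05 ± 0.08, less than its SE.

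Of the 5 inhibitors of caspases and of caspase 8 activation, 0 passed an unadjusted p under 0.05, and their differences ran between -0.08 and 0.31. Cflar encodes FLIP, which competes with caspase 8 at the death receptors, and was the brightest probe of these genes. It read 9.56 and 8.60 on the KO arrays, against 9.24 and 8.34 on the WT arrays. The genotypes overlapped, with a difference of 0.05 ± 0.11 (adjusted p = 0.815). Xiap, the IAP that binds caspases directly, had the highest difference, 0.31 ± 0.17. Its KO replicate 2 stood above the other 3 arrays, the difference was 0.10 without it, and its other probes were at 0.06 and -0.07. Birc2 and Birc3, ubiquitin ligases of TNF receptor signalling, were at -0.08 ± 0.09 and -0.08 ± 0.08. Birc6, a very large member of the family, was at 0.09 ± 0.12.

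On the pro-death side, the BH3-only genes had differences of both signs. Bmf, whose product is released from the cytoskeleton and binds the guardians, read 0.538 and 0.428 on the KO arrays, against 0.266 and 0.30 on the WT arrays. Both KO arrays were higher, by 0.77 ± 0.16, which is 1.70-fold (adjusted p = 0.115). Bcl2l11 encodes BIM, a BH3-only protein that binds all the guardians and is known to promote neutrophil death. It read 1.75 and 1.64 on the KO arrays, against 2.11 and 2.29 on the WT arrays, and so was lower in KO without overlap (-0.38 ± 0.09; adjusted p = 0.139). Bad, a partner of BCL2 and BCL-XL held inactive by phosphorylation, read 0.129 and 0.122 on the KO arrays, against 0.105 and 0.115 on the WT arrays (0.19 ± 0.10; adjusted p = 0.311). Its groups did not overlap either, but the separation is small. Bid, which caspase 8 cuts to link death receptors to mitochondria, was the brightest BH3-only probe. It read 7.10 and 6.82 on the KO arrays, against 6.85 and 6.63 on the WT arrays, so the arrays overlapped (0.05 ± 0.08; adjusted p = 0.757). The p53-induced genes Bbc3 (PUMA) and Pmaip1 (NOXA) differed by 0.20 ± 0.18 and 0.35 ± 0.33, and in both the spread between replicates was as large as the difference. Hrk, a BH3-only gene known from neurons, had a dim probe and was at -0.34 ± 0.18. Bik was well above background on 0 of the 4 arrays and has no value.

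The 3 pore formers, which open the outer mitochondrial membrane, had positive differences on their brightest probes, that of Bok turning negative with normexp background correction, and 0 passed an unadjusted p under 0.05. Bak1 was the brightest. It read 9.09 and 8.12 on the KO arrays, against 7.43 and 7.65 on the WT arrays. These groups did not overlap (0.19 ± 0.10; adjusted p = 0.328), but a dimmer Bak1 probe overlapped at -0.23 ± 0.24, and the mean over its probes was -0.023. Bax overlapped, at 0.19 ± 0.17. Bok was well above background on only 1 KO and 1 WT array, and its difference of 0.24 ± 0.60 has no order.

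Of the genes acting after the pore opens, Cycs and Diablo read higher and Apaf1 lower in KO. Cycs encodes cytochrome c, a carrier of the respiratory chain that triggers caspase activation once it reaches the cytosol. It read 31.9 and 34.3 on the KO arrays, against 21.4 and 19.7 on the WT arrays. No array of one genotype came near the other, and the difference of 0.69 ± 0.10, 1.61-fold, had the smallest adjusted p of the apoptosis genes (0.0903). Cycs has many processed copies in the mouse genome, and whether its probes also bind RNA from them was not tested. Diablo, whose product relieves caspases of the IAPs, read 2.02 and 1.81 on the KO arrays, against 1.47 and 1.58 on the WT arrays. Both KO arrays were higher (0.33 ± 0.10; adjusted p = 0.18). Apaf1, the scaffold of the apoptosome, read 1.87 and 1.88 on the KO arrays, against 2.27 and 2.21 on the WT arrays. It was lower in KO on every array (-0.25 ± 0.08; adjusted p = 0.176).

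Of the 4 caspases measured, 0 passed an unadjusted p under 0.05. Casp6, an executioner caspase, had the largest difference among them. It read 1.07 and 0.843 on the KO arrays, against 0.708 and 0.75 on the WT arrays, without overlap (0.38 ± 0.15; adjusted p = 0.234). Casp2, an initiator linked to DNA damage, was the brightest, with 20.6 and 19.8 on the KO arrays and 23.1 and 19.5 on the WT arrays. Its KO arrays lay between the WT arrays, and the difference was -0.07 ± 0.12. Casp9, the caspase of the apoptosome, was at 0.18 ± 0.10 and Casp8, the caspase of the death receptors, at -0.06 ± 0.09.

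In the death receptor group, Ripk3 and Fas read higher and Fadd lower in KO. Ripk3 encodes the kinase of necroptosis, a caspase-independent death. It read 8.64 and 7.85 on the KO arrays, against 6.37 on each WT array. The KO arrays were both higher, by 0.37 ± 0.09 (1.29-fold; adjusted p = 0.137). Fas, the receptor of FAS ligand, read 0.767 and 0.875 on the KO arrays, against 0.718 and 0.602 on the WT arrays. These groups lay next to each other without overlap (0.32 ± 0.14; adjusted p = 0.263). Fadd, the adaptor that links FAS to caspase 8, read 1.71 and 1.64 on the KO arrays, against 2.04 and 2.07 on the WT arrays. It was lower in KO with little spread within either genotype (-0.29 ± 0.08; adjusted p = 0.151). Tnfrsf10b, the mouse TRAIL receptor, was dim and its arrays overlapped (-0.29 ± 0.23). Ripk1, which can signal survival or death after TNF receptor engagement, read 3.77 and 3.84 on the KO arrays, against 4.63 and 4.10 on the WT arrays (-0.20 ± 0.10; adjusted p = 0.319). Bcl2l13, a BCL2-like mitochondrial protein with reported roles in death and in mitophagy, read 4.24 and 4.20 on the KO arrays, against 4.91 and 4.86 on the WT arrays (-0.21 ± 0.08; adjusted p = 0.219). On their brightest probes both genes of either role were lower in KO without overlap, as were 30.5% of all genes, and a dimmer Ripk1 probe overlapped at 0.18 ± 0.13.

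**Figure D2:**
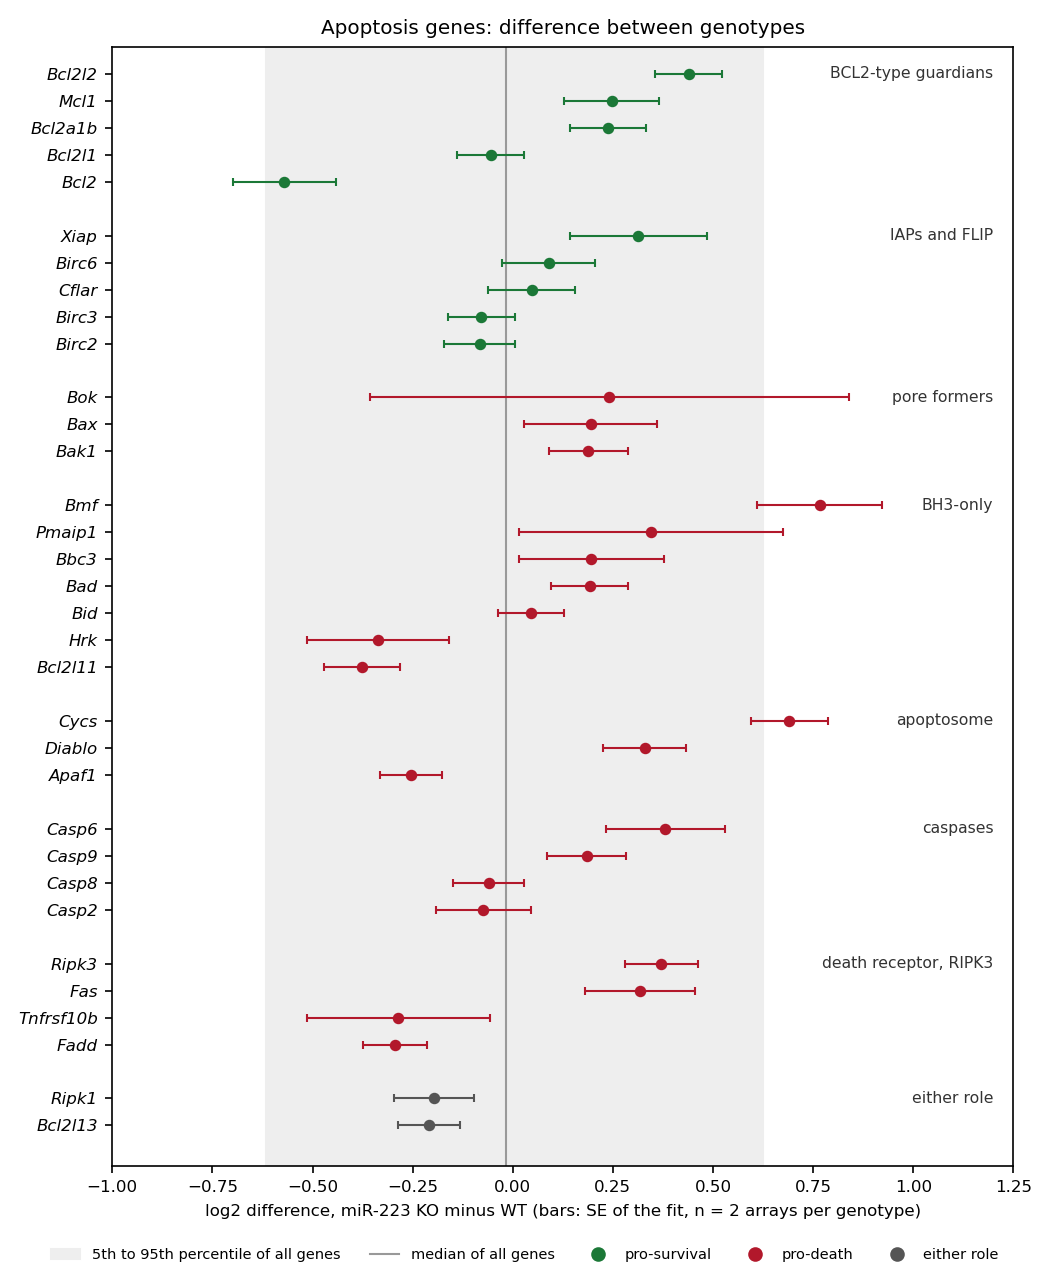
Difference of each measured apoptosis gene between genotypes (horizontal axis, log2 units, KO minus WT; bars, SE of the fit, n = 2 arrays per genotype), with genes in rows by role, colours for side, a grey line at the median of all genes and a grey band over their 5th to 95th percentile. Bmf and Cycs, at 0.77 and 0.69, are the only points outside the band of -0.62 to 0.63, and Bcl2, at -0.57, is the lowest.

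Pro-survival and pro-death genes were then set side by side. Of the 10 pro-survival genes measured, 6 had positive and 4 negative differences, with a median of 0.07. Of the 21 pro-death genes measured, 14 were positive and 7 negative, with a median of 0.19, and the median over all genes was -0.02. At an unadjusted p under 0.05 there were 2 of 10 pro-survival genes (20%; Bcl2l2 higher and Bcl2 lower) and 7 of 21 pro-death genes (33.3%; 4 higher, 3 lower), against 23.8% of all genes. Both sides thus held transcripts with opposite differences. The pro-survival median minus the pro-death median was -0.12. This distance depends on single arrays: it was -0.03 without KO replicate 1, and the pro-death median itself was 0.12 without KO replicate 1 and 0.10 without WT replicate 2.

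Several probes of a gene gave a second reading of it. Of 17 members with at least 2 probes kept, 10 had differences of the same sign on all probes and 7 had mixed signs. Over the 62 member probes, 31 differences were positive and 31 negative, and in a fit over all 25749 probes, added after the data were seen, 0 passed an adjusted p under 0.05 (smallest 0.0874). The 3 probes of Cycs were all higher in KO, at 0.69, 0.41 and 0.43. Those at 0.41 and 0.43 overlap, at chr6:50514542-50514601 and chr6:50514522-50514581 of mm9, so they are not separate readings. The 3 probes of Bcl2l11 were all lower, at -0.20, -0.38 and -0.68, and so were the 3 of Apaf1, at -0.25, -0.34 and -0.51, and both of Fadd, at -0.29 and -0.27. Every probe separated the genotypes in these 4 genes and in Bad, Bcl2l2 and Birc3, 7 of the 17 in all. The share over all genes with several probes is not given here, so this count has no background. The Birc3 differences, -0.08 and -0.05, were each smaller than their SE, and the Bad probes were dim, at 0.129 or less. Also dim were the Bcl2l11 probes at -0.20 and -0.68, which read 0.190 or less, and the second Bcl2l2 probe, which read 0.0601 or less. Over single probes, 40 of the 62 (64.5%) separated them, against 59% of all probes kept.

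The probes of Bcl2 did not give the same reading. The probe annotated to transcript variant 2, at chr1:108608970-108609029 of mm9 on the minus strand, gave the -0.57 above. A probe of a cDNA clone nearby, at chr1:108607310-108607369, read 0.233 and 0.244 on the KO arrays, against 0.328 and 0.428 on the WT arrays (-0.65 ± 0.16). The remaining probe, annotated to variant 1 at chr1:108434793-108434852 and printed in 10 spots, read 0.726 and 0.613 on the KO arrays, against 0.644 on each WT array (0.05 ± 0.12). The variant 2 and clone probes were therefore lower in KO, and the variant 1 probe was not separated by genotype. Within each array, the variant 2 signal over the variant 1 signal was 1.53 and 1.49 in KO, against 2.30 and 2.35 in WT. That is a difference of -0.62 on the log2 scale, which does not tell which of the probes differed. An exact two-sided permutation test over arrays gave p = 0.333, the smallest that 2 arrays against 2 allow, so the test could not pass and the ratio stands as a description. Bmf was similar in kind: its brightest probe over another of its probes was 5.48 and 5.57 in KO, against 2.98 and 3.0 in WT, the other probe alone differing by -0.12 ± 0.16. The 6 probes of Cflar ran between -0.31 and 0.22, and the probes of Diablo gave 0.33 and -0.19. Pairs of probes were chosen after their values were seen.

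**Figure D3:**
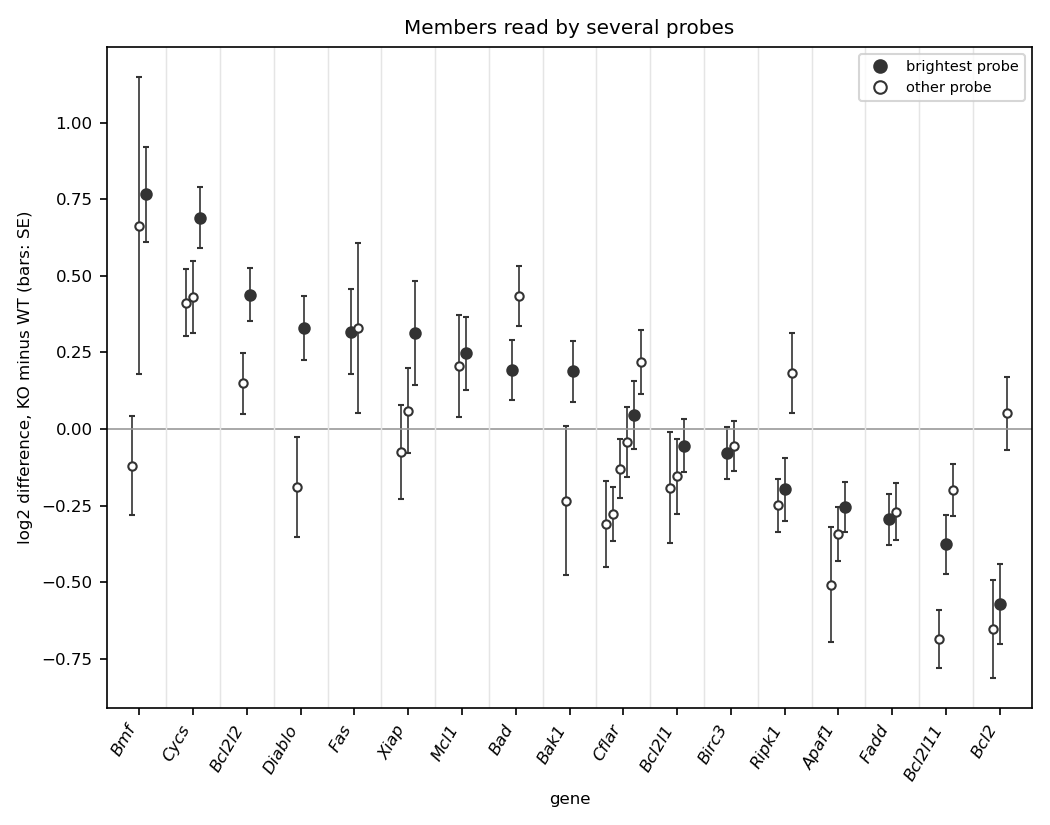
Difference between genotypes for every kept probe of the 17 apoptosis genes read by several probes (vertical axis, log2 units, KO minus WT; bars, SE of a fit over all probes), with filled symbols for the brightest probe. All probes of Cycs lie above 0 and all of Apaf1, Bcl2l11 and Fadd below it, whereas those of Bcl2, Bmf, Cflar and Diablo straddle 0 and span over 0.5.

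Probes printed in 10 spots show how exact a single array is. Across the spots of Bax the SD within an array was 0.050 to 0.089 log2 units, of Fas 0.046 to 0.092, of the Bcl2 variant 1 probe 0.062 to 0.093 and of Bcl2l1 0.081 to 0.138. Bax read 1.14 and 1.47 on the KO arrays, against 1.21 and 1.06 on the WT arrays, so its replicates differed by more than its spots did. Repeated spots are not replicate samples, and they show only that spot noise is smaller than the spread between the arrays of a genotype for Bax and Fas.

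**Figure D4:**
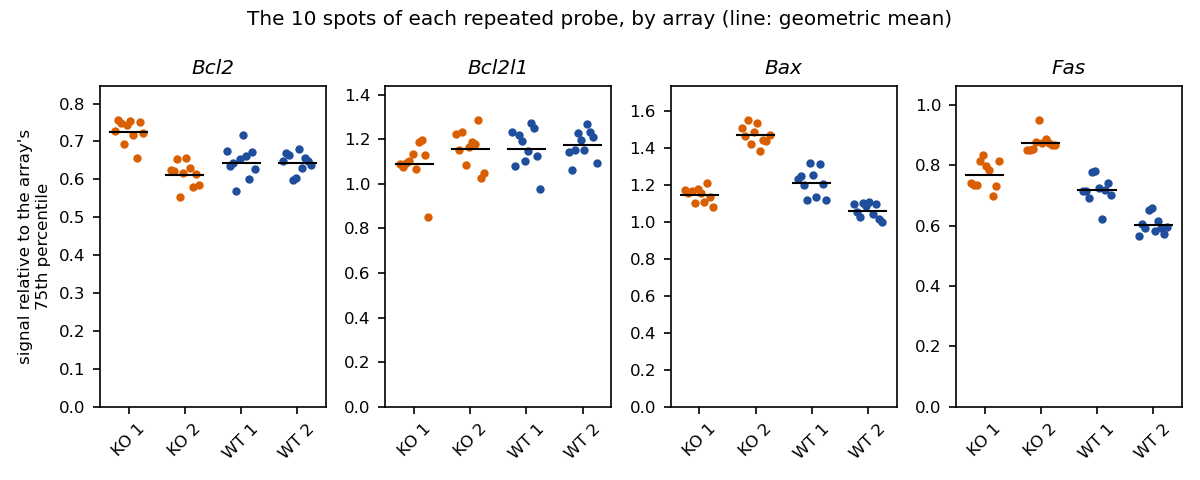
Relative signal of the 10 spots of 4 repeated probes (vertical axis, 1 is the array's 75th percentile; each point a spot, line the geometric mean) on the KO arrays and the WT arrays. The Bax spots of KO replicate 2, between 1.38 and 1.55, lie above all spots of the other arrays, and the Bcl2l1 spots of all 4 arrays overlap.

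Other genes of the death machinery, in lists drawn from general knowledge, also held differences in both directions, and 0 passed an adjusted p under 0.05 in any list. The shares below stand against 47.6% of all genes with a positive difference and 23.8% at an unadjusted p under 0.05 (11.8% higher, 12% lower). Among 18 other BCL2-related genes 13 had positive differences (72.2%; median 0.18), with 3 higher and 1 lower at an unadjusted p under 0.05 (22.2%). Bcl2l15, a BCL2-like gene, was at 0.73 ± 0.09, Bnip3, of mitophagy and hypoxic death, at 0.51 ± 0.11, Ei24, a p53-induced gene, at 0.32 ± 0.08 and Bcl2l12 at -0.24 ± 0.08. Among 14 other caspase and executioner genes the signs were split 7 and 7 (median 0.02), with 3 higher and 2 lower (35.7%). Casp1, the caspase that matures interleukin 1 beta, was at 0.51 ± 0.11, Cideb at 1.05 ± 0.12, Parp1, a caspase substrate, at 0.37 ± 0.09, and Dffa, the inhibitor of the apoptotic nuclease, at -0.38 ± 0.08. Among 8 other IAP genes and regulators 7 were positive (87.5%; median 0.21), with 3 higher and 1 lower (50%). Xaf1, an interferon-inducible antagonist of XIAP, was at 1.0 ± 0.14, Naip5, a flagellin sensor, at 0.53 ± 0.11, and Aven, an inhibitor that binds APAF1, at 0.32 ± 0.11. Birc5 was the lower one, at -0.61 ± 0.09. It encodes survivin, which works in mitosis. All 14 mitotic genes of a separate list were lower in KO too, and a link between them and Birc5 was not tested.

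Among 21 other genes of death receptor signalling 11 were positive and 10 negative (median 0.04), with 2 higher and 1 lower at an unadjusted p under 0.05 (14.3%, against 23.8% of all genes). Faf1, a FAS-binding factor, was at -0.33 ± 0.08, Cradd, an adaptor of caspase 2, at 0.31 ± 0.08 and Traf2, an adaptor of TNF receptors, at -0.24 ± 0.09. Tnfrsf25, the death receptor DR3, was well above background on both KO arrays and on 0 of the WT arrays. Its signal in KO was at least 2.31-fold higher, taking as the WT level on each array the higher of its own signal and the lowest signal well above background there (adjusted p = 0.153). It passed the background filter only through its KO arrays, which fixes its direction, and it is 1 of the 2 counted as higher. Among 19 genes, namely Trp53 itself and targets of p53, 10 were positive and 9 negative (median 0.01). Of these, 6 were higher and 3 lower at an unadjusted p under 0.05 (47.4%, against 23.8% of all genes). Perp, a membrane protein of p53-driven death, was at -1.12 ± 0.10, Zmat3, a p53-induced RNA-binding protein that was well above background on both KO arrays and 1 WT array, at 1.54 ± 0.18, Mdm4, a p53 inhibitor, at -0.41 ± 0.09 and Pidd1, a scaffold for caspase 2, at -0.43 ± 0.10. Each of these lists held differences of both signs.

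**Figure D5:**
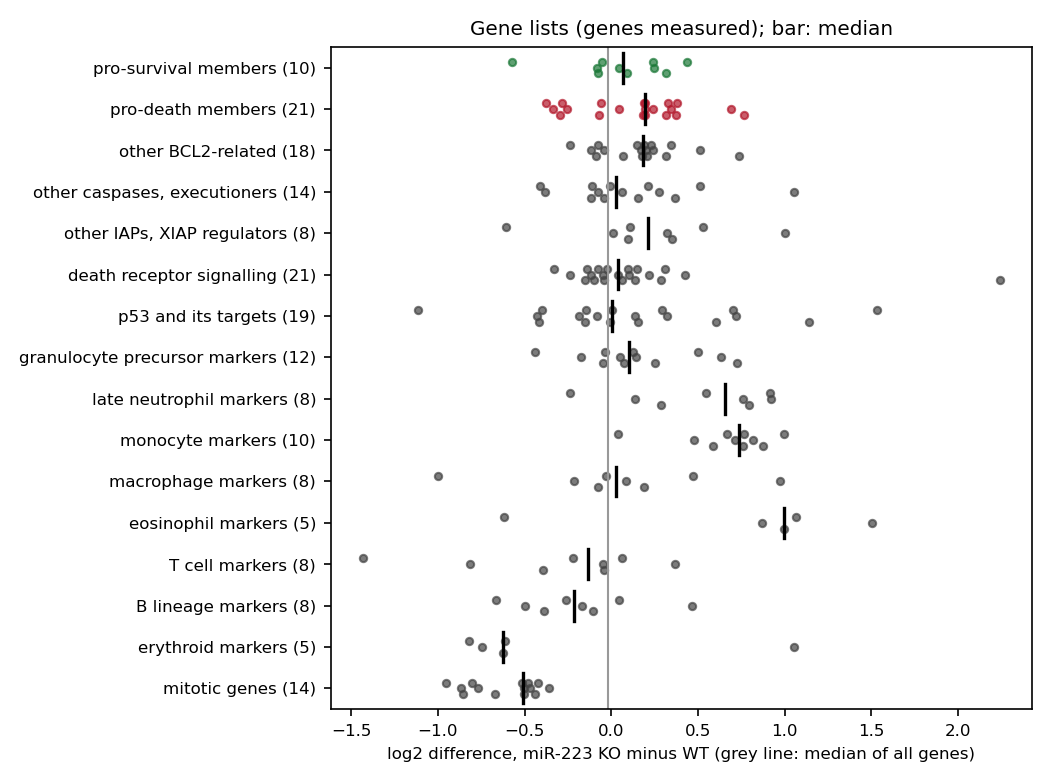
Differences between genotypes of single genes in each list (horizontal axis, log2 units, KO minus WT; points, genes; black bar, median; grey line, median of all genes), with the number measured in parentheses. The apoptosis lists straddle 0, while all 14 mitotic genes lie below it and all 10 monocyte markers above it.

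Markers of other cells and of the cell cycle are given by list, and 0 of their genes passed an adjusted p under 0.05. All 14 mitotic genes were lower in KO, at a median of -0.51, and their summed relative signal was 188 and 198 on the KO arrays, against 284 and 277 on the WT arrays. All 10 monocyte markers were higher (median 0.74; sums 688 and 612 in KO, against 602 and 599 in WT, mostly from Ly6c2, which differed by 0.04). Late neutrophil markers were higher in 7 of 8 (median 0.65; sums 82.9 and 117 in KO, against 65.4 and 69.1 in WT). Eosinophil markers were higher in 4 of 5 (sums 6.27 and 5.05 in KO, against 2.79 and 2.29 in WT). Measured erythroid markers were lower in 4 of 5 (sums 33.6 and 25.8 in KO, against 45.9 and 44.5 in WT), whereas Gata1, Klf1 and Rhag did not pass the background filter. Macrophage markers were higher in 4 of 8 (sums 20.1 and 17.9 in KO, against 13.2 and 14.8 in WT). These sums came mostly from Vcam1 and Adgre1, which were at 0.47 and 0.97, whereas Cd5l was at -1.0. T cell markers were lower in 6 of 8 (sums 0.737 and 0.563 in KO, against 1.22 and 1.2 in WT), the sum being set apart by Cd3d, at 0.299 and 0.301 in KO, against 0.801 and 0.82 in WT. B lineage markers were lower in 6 of 8 (sums 11.7 and 8.68 in KO, against 8.13 and 8.59 in WT, mostly from Cd79b, which was at 0.46). Precursor markers were higher in 8 of 12 (sums 5130 and 4473 in KO, against 4727 and 5126 in WT). These sums came mostly from Mpo, Ltf, Chil3, Camp and Ngp, whose differences ran between -0.44 and 0.05. Prtn3, Ctsg and Elane, at 0.72, 0.63 and 0.50, were the 3 precursor markers at an unadjusted p under 0.05 (25%, against 23.8% of all genes). The part of these cells in the values of the apoptosis genes was not tested.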

How the data were processed

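RNA of 4 samples was read on 1-colour Agilent mouse arrays. Per the file headers, Agilent Feature Extraction 10.5.1.1 detrended the scans and subtracted background, which gave the deposited processed signal, an intensity with no scaling between arrays. Mean spot and local background intensities are in the same files. The authors' deposited table holds log2 values, whose scale and centring no source states. Each of its columns followed log2 processed signal (Pearson's r at least 0.9999 across 41174 probes, all medians 4.68), and it was used as an alternative only.

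Each array's 75th percentile over non-control spots was subtracted from log2 processed signal, spots of a probe were averaged, a probe was kept when well above background on 2 or more of 4 arrays (25749 of 41174), and the brightest probe stood for a gene. Names came from the files for the apoptosis genes. Other probes were renamed through RefSeq GRCm38.p6 (26933 by accession, 5570 by current symbol, 894 by synonym), and 7777 kept the file's name. Probe coordinates are those of the files, on mm9. Genotypes were compared with limma 3.58.1 in R 4.3.3 (lmFit, eBayes without trend, Benjamini-Hochberg, adjusted p under 0.05; prior degrees of freedom 1.83), without a replicate block. The labels do not say whether replicate numbers pair the samples. The correlation of deviations between arrays of the same number was 0.04. With 2 arrays per genotype both pairs give that same value, so it cannot decide whether samples were handled in pairs. The procedure was tested on simulated data.

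Values on each array are given for the 16 members with the smallest p, the brightest of each role group and the A1 genes, and for Bax beside its repeated spots. From each other pathway list up to 4 genes with the smallest p are named with their differences. The members and lists were chosen with earlier results of these data known, and some roles were assigned from general knowledge. Alternatives changed in turn (a robust prior only together with the trend) the scaling, background correction, starting values, treatment of outlier spots, dim-probe filter, choice of probe, variance prior, p threshold, block and arrays. A slide block was not run, since all arrays lie on 1 slide. Protein sequences were not used here. The number of arrays limits the precision.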

Additional observations from a re-analysis of the deposited data

How the results depend on the processing

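The number of genes called over the whole array at an adjusted p under 0.05, which was 0, was 4 with quantile normalization, 61 on the authors' deposited values, 125 for genes well above background on all arrays, 1627 with an intensity trend, 1886 with the trend and a robust prior, 1885 with normexp fitted without control spots, and 4043 at an unadjusted p under 0.05. For the 33 apoptosis genes the count of 0 was 5 with normexp without control spots (Cycs, Bcl2, Bmf, Bcl2l2 and Ripk3), against 1885 of 16978 genes. It was 6 with the trend (18.2%, against 9.58% of all genes) and 6 with the trend and a robust prior (against 1886 of 16978 genes). At an unadjusted p it was 9 (27.3%, against 23.8% of all genes). In the fit with the replicate block 0 genes and 0 apoptosis genes were called, as without it, and the smallest adjusted p among the apoptosis genes was 0.163, for Cycs. The pro-survival median, 0.07, was 0.14 with normexp on all spots and 0.15 on the authors' values, and the pro-death median, 0.19, was 0.27 on the authors' values. Leaving out 1 array at a time gave pro-death medians of 0.10 to 0.20, pro-survival medians of 0.04 to 0.09 and a pro-survival minus pro-death distance of -0.16 to -0.035.

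Over 15 settings, 16 of the 33 genes kept their sign throughout and 17 turned in at least 1 setting, with the cause not tested. Normexp on all spots, a setting touched by a control spot of WT replicate 1 whose signal minus background is -29868.5, moved the median of all genes by -0.14 and gave Bcl2l1 0.0099, Bcl2a1b -0.044, Xiap -0.022, Birc2 0.047, Birc3 0.24, Bok -1.29, Bad -0.74, Bmf -0.0057, Casp2 0.34, Casp8 0.38, Bcl2l13 0.10 and Ripk1 0.22. Normexp without control spots gave Bok -0.32 and Casp8 0.046. The authors' values gave Bcl2l1 0.026, Birc3 0.0033, Casp2 0.0078 and Casp8 0.021. The mean over probes gave Cflar -0.082 and Bak1 -0.023. With 1 array left out, Cflar ranged from -0.030 to 0.12, Pmaip1 from -0.0066 to 0.70, Birc6 from -0.021 to 0.20, Bok from -0.56 to 1.04, Casp2 from -0.19 to 0.047 and Bbc3 from -0.031 to 0.42. Dim probes such as Bok, Hrk and Tnfrsf10b lie near background, which limits what their values can show.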
